A study of Saccharomyces cerevisiae with 8 samples.

Results

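The AAD genes of budding yeast (Saccharomyces cerevisiae) encode putative aryl-alcohol dehydrogenases, and 4 of them, AAD4, AAD10, AAD14 and AAD15, had a spot of their own on the arrays. They were chosen by gene name among 3127 named genes, with their ratios on these arrays already known, so the values below describe them and no p-value is given for any of the 4. RNA of a wild-type strain, yPH500, and of a strain lacking SUB1 was compared on 8 spotted open reading frame arrays, each of which carried both strains in different dyes. Untreated cells were exponential cultures in rich medium, taken before treatment. Treated cells were the same kind of culture 1 h after addition of 4-nitroquinoline 1-oxide (4NQO), at a labelled dose of 1 µg/µl. Each condition had 2 experiments, and each experiment was hybridised once with sub1Δ RNA in Cy5 and once, as a dye swap, with sub1Δ RNA in Cy3. No array set treated against untreated cells, and an effect of 4NQO and one of the added hour cannot be told apart. The labels do not say whether the sub1Δ strain was a single clone, nor what its parent was.

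AAD proteins belong to the aldo-keto reductases, enzymes that use NADPH or NADH to interconvert aldehydes and alcohols. The yeast genes were named for their likeness to an aryl-alcohol dehydrogenase of a lignin-degrading fungus, and no physiological substrate is firmly known for them. They form a family of similar copies near chromosome ends, together with AAD3 and the pseudogene AAD6, and AAD4 and AAD6 are known for their induction by oxidants through the transcription factor Yap1. AAD15 is a shortened copy. Sub1 is a conserved transcription coactivator, and 4NQO is a mutagen that makes bulky DNA adducts and oxidative damage.

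Array values were log2 ratios, turned here so that a value above 0 means more RNA in sub1Δ than in wild type. Such a ratio does not tell fewer expressing cells from less RNA per cell. Between 266 and 3234 of the 6216 spots lacked a value on an array, the most on the swapped array of the second 4NQO experiment. Because the PCR products of similar genes were spotted whole, a spot of one AAD gene may bind RNA of another, of AAD3 or of AAD6, and this was not measured. AAD3, AAD6 and SUB1 had no single-named spot and were not analysed here, which leaves the SUB1 deletion unchecked on these arrays. The sequences of the genes and their proteins were not used here. Of 32 possible values of the 4 genes (4 genes on 8 arrays), 30 were present, 16 below 0 and 14 above 0.

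AAD4, the oxidant-inducible member, had the lowest mean ratio of the AAD genes in both conditions, with the swaps read as unturned. AAD15 was lower on single arrays. After 4NQO it lay at -2.01 and -2.18 on the 2 arrays of experiment 1 and at -1.26 and -1.79 on those of experiment 2. All 4 arrays gave less AAD4 RNA in sub1Δ, and both dye orientations gave similar values. The mean was a log2 ratio of -1.81 ± 0.40 (SD, n = 2 experiments), 3.51-fold lower in sub1Δ. A value below 0 on all 4 arrays was also found for 25.4% of the 2194 features measured on all 4 arrays with 4NQO, and 182 of these features had a lower mean than AAD4. The median of all of them was -0.56, so the AAD4 mean lay below a background that was itself shifted downward. With array medians centred the AAD4 mean was -1.36.

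Before treatment AAD4 lay at 0.37 and -3.28 on the arrays of experiment 1 and at -1.68 and -0.06 on those of experiment 2. The arrays of an experiment thus differed widely, and which dye gave the lower value changed from one experiment to the other. The untreated mean was -1.16 ± 0.42 (SD, n = 2), with experiments at -1.46 and -0.87. This small SD hides the spread of the 4 arrays. Their range included all 4 values measured with 4NQO, so the conditions overlapped. From untreated to 4NQO the ratio differed by -0.64 in experiment 1 and by -0.66 in experiment 2. The median difference over the 1654 features with all 4 means was -0.25, so part of this change was shared by all features. With array medians centred the AAD4 mean was -1.06 untreated and -1.36 with 4NQO.

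**Figure D1:**
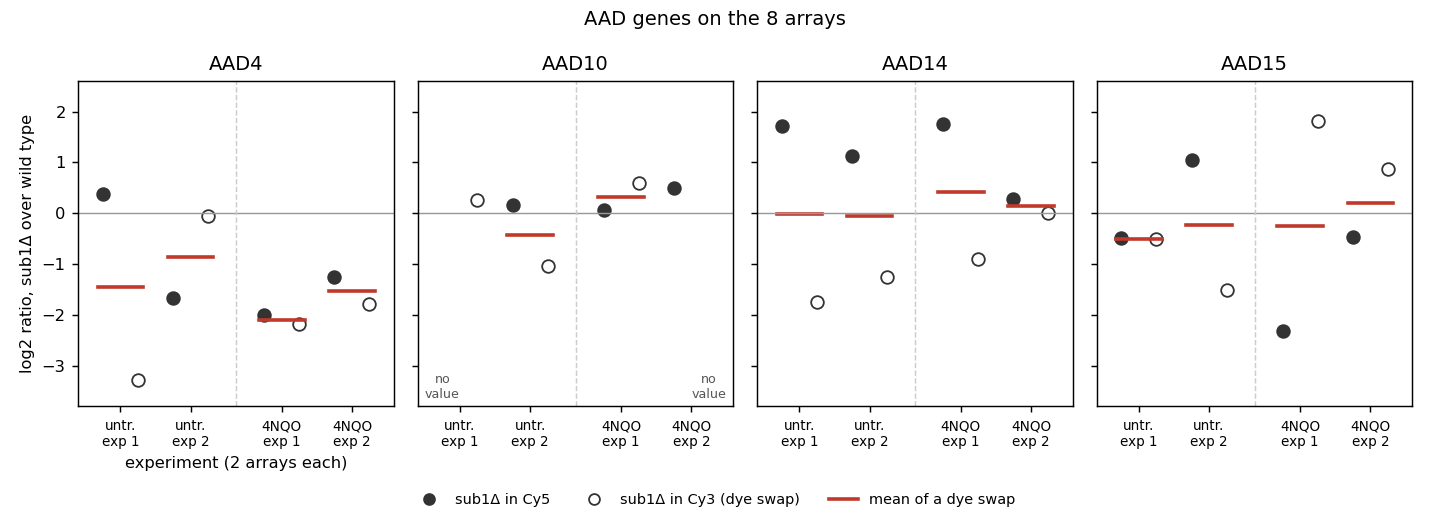
Log2 ratio of sub1Δ over wild type for each AAD gene on each array, with filled points for sub1Δ in Cy5, open points for sub1Δ in Cy3 and red lines for the mean of each dye swap. AAD4 lies below 0 on all 4 arrays with 4NQO, while AAD14 and AAD15 have open and filled points on opposite sides of 0 in most experiments.

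AAD14, a putative dehydrogenase gene on chromosome XIV, showed no strain ratio of one direction in untreated cells, where it lay at 1.71 and -1.75 in experiment 1 and at 1.13 and -1.26 in experiment 2. Each time the array with sub1Δ in Cy5 was high and its dye swap about as low. The experiments therefore averaged to -0.02 and -0.06. With 4NQO the pattern was the same in experiment 1, at 1.75 and -0.90. In experiment 2 both values were small, at 0.27 and 0.01. The 4NQO mean was 0.28 ± 0.20 (SD, n = 2), and 72.9% of features had a lower one.

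As deposited, before any array was turned, AAD14 was a Cy3 over Cy5 ratio below 0 on 7 of the 8 arrays. The 4 untreated deposited values averaged -1.46 ± 0.38 (SD, n = 2 experiments), lower than all but 114 of 3457 features, and the 4 values with 4NQO averaged -0.73 ± 0.84. AAD14 gave more signal in Cy5 on those 7 arrays, whichever strain was in that dye. That reading holds if the deposited dye-swapped arrays were left unturned, which the sources used here do not state. If they had already been turned, the same numbers would be a strain ratio of 1.46 in untreated cells and 0.73 with 4NQO, higher in sub1Δ. Over all features the deposited arrays of a dye swap correlated at a Pearson r of -0.20 in untreated experiment 1, 0.20 in untreated experiment 2, and -0.26 and -0.33 in the 4NQO experiments. By rank the 4 values were -0.25, -0.05, -0.30 and -0.38, all below 0.

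AAD15, the shortened copy, also changed sign with the dye, but in the opposite sense between conditions. With 4NQO its turned values were -2.31 and 1.81 in experiment 1 and -0.46 and 0.88 in experiment 2. Here the arrays with sub1Δ in Cy5 were the low ones. The strain mean was -0.02 ± 0.32 (SD, n = 2), while the deposited Cy3 over Cy5 values averaged 1.37 ± 0.99, above 96.0% of the 2194 features. If the swaps had already been turned, the strain ratio of AAD15 would instead be -1.37 with 4NQO and 0.64 in untreated cells. In untreated cells AAD15 lay at -0.50 and -0.51 in experiment 1, the one pair in which both orientations gave the same answer for this gene. Experiment 2 gave 1.04 and -1.52. The untreated mean was -0.37 ± 0.19.

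AAD10 had values on 6 arrays and lacked the unswapped array of untreated experiment 1 and the swapped array of 4NQO experiment 2. With 4NQO it lay at 0.06 and 0.60 in experiment 1 and at 0.49 on the remaining array of experiment 2. All 3 values were above 0, and the medians of those arrays lay between -0.54 and -0.14. Untreated values were 0.25 on the one array of experiment 1 and 0.17 and -1.03 in experiment 2. The gene had 1 dye-swap mean per condition, -0.43 untreated and 0.33 with 4NQO, so no SD exists and it did not enter the fit.

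**Figure D2:**
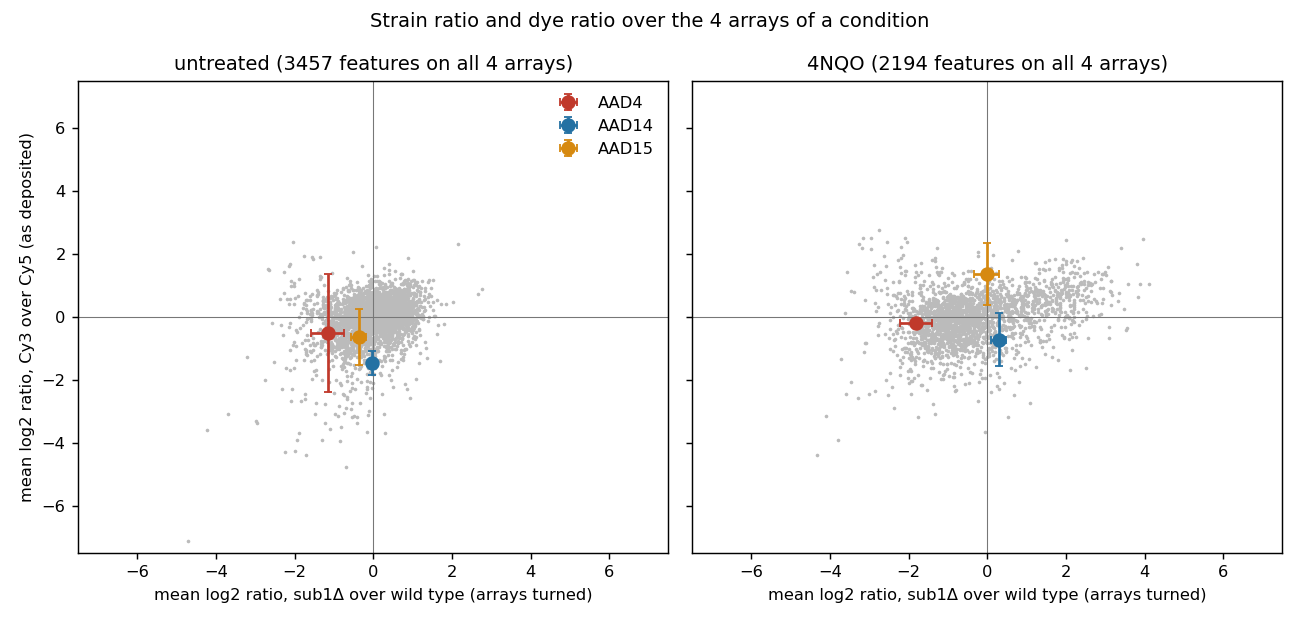
Mean turned log2 ratio (sub1Δ over wild type, horizontal) against mean deposited log2 ratio (Cy3 over Cy5, vertical) for every feature on all 4 arrays of a condition (grey) and for AAD4, AAD14 and AAD15, with bars of 1 SD over 2 experiments. AAD4 with 4NQO lies far along the strain axis at -1.81 and near 0 on the dye axis, whereas AAD14 untreated and AAD15 with 4NQO lie near 0 on the strain axis and at -1.46 and 1.37 on the dye axis.

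The 4 genes did not share one profile. Both arrays of a dye swap had the same sign in 6 of 14 complete pairs of the 4 genes (42.9%), against 62.2% of 15884 pairs over all features. By gene the count was 3 of 4 for AAD4, 1 of 2 for AAD10, and 1 of 4 each for AAD14 and AAD15. None of AAD4, AAD14 and AAD15 had the same sign on all 4 untreated arrays, which 19.6% of 3457 features did. AAD4 was the lowest of the measured members on 5 arrays and AAD15 on the other 3. On the dye-swapped array of untreated experiment 2 AAD4 was instead the highest. Within an array the members spanned between 1.46 and 4.06 on the log2 scale.

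In order of their means with 4NQO the genes ran from AAD4 (-1.81) through AAD15 (-0.02) to AAD14 (0.28), with the single AAD10 experiment at 0.33. The experiments of AAD15 (-0.25 and 0.21) and AAD14 (0.42 and 0.14) overlapped, while those of AAD4 (-2.10 and -1.53) stood below both. With swaps taken as already turned the order was AAD15 (-1.37), AAD4 (0.18) and AAD14 (0.73), so the order depends on the swap direction. In untreated cells the order was AAD4 (-1.16), AAD15 (-0.37) and AAD14 (-0.04), with experiments of AAD15 at -0.50 and -0.24 that did not overlap with those of AAD4 or AAD14. With swaps already turned those means were 0.51, 0.64 and 1.46. The single untreated arrays did overlap, from -3.28 to 0.37 for AAD4, -1.52 to 1.04 for AAD15 and -1.75 to 1.71 for AAD14. The median of the 3 genes was -0.37 untreated and -0.02 with 4NQO, beside 0.02 and -0.56 for all features tested. For the difference between conditions AAD14 gave 0.32 and AAD15 0.35, with the same sign in both experiments. No feature of the 1654 with all 4 means passed for that difference in limma (0.0% called at a Benjamini-Hochberg adjusted p under 0.05), although 153 stood below 0.05 before adjustment.

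**Figure D3:**
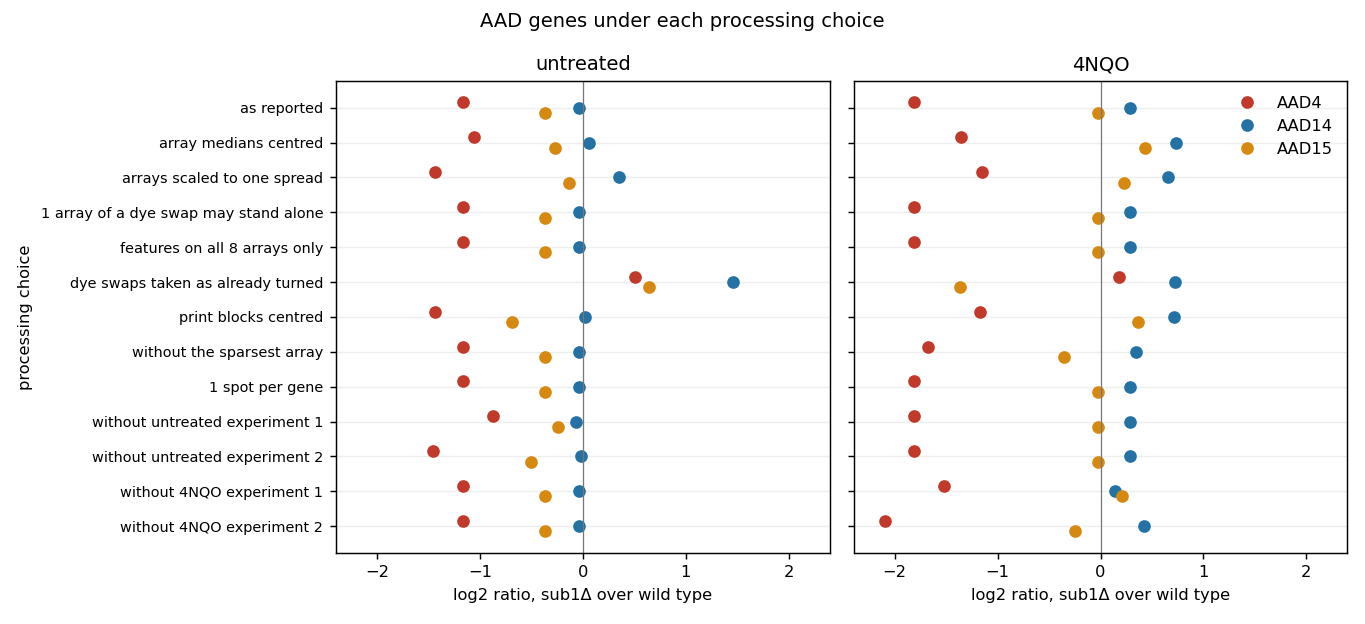
Log2 ratio of AAD4, AAD14 and AAD15 in untreated and 4NQO-treated cells under each processing choice, as means of the available experiments. AAD4 stays below 0 with 4NQO under all choices shown but the one that takes the dye swaps as already turned, where it is 0.18.

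AAD4 with 4NQO depended on the direction of the swaps and on the level set as 0. With swaps taken as already turned it was 0.18, since its values on opposite orientations then cancel. Under the other 12 alternatives, including the removal of single experiments, it ranged from -2.10 to -1.15, the smallest with arrays scaled to one spread. Its print block, the group of spots laid down by one pin, had medians of -0.81, -0.41, -0.91 and -0.44 on the 4 arrays with 4NQO. With blocks centred the AAD4 mean was -1.17. Without the sparsest array it was -1.68.

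Likeness over arrays was measured as the root mean square difference of centred values over at least 6 shared arrays, across named genes. The genes nearest to AAD4 were YPS5, which encodes a putative GPI-anchored aspartic protease (0.47), LUC7, of the U1 small nuclear ribonucleoprotein (0.68), and FOL2, a GTP cyclohydrolase gene (0.73). Each shared 6 arrays with it and lacked the swapped array of untreated experiment 1, where centred AAD4 was lowest, at -3.08. AAD14 was nearest to PAU17, of the seripauperin family (0.36), AAD10 to ATG8, the ubiquitin-like protein of autophagy (0.33), and AAD15 to YJR012C (0.64). The next 2 were PEX17 and NAB2 for AAD14, FMP32 and YND1 for AAD10, and CDC16 and RIC1 for AAD15. The other AAD genes ranked further away, but over other sets of arrays, so these distances are not strictly comparable. AAD14 and AAD15 shared 8 arrays with AAD4, and AAD10 shared 6, in each case with that swapped array included. PAU17, PEX17 and NAB2 lacked it too. Seen from AAD4, AAD14 ranked 1301, AAD15 ranked 1582 and AAD10 ranked 1614 of 2452 genes, where the median distance was 2.03. AAD10 ranked 170 from AAD15 and 297 from AAD14, with distances of 1.26 and 1.30 and medians of 1.83 and 1.80. Seen from AAD10 the same pairs ranked 709 and 749 of 1527, where the median distance was 1.32.

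Position was the other shared feature. In the gene order of the R64 assembly, which may differ from the genome behind the array, 5 protein-coding genes lie between AAD4 and its chromosome end, 5 for AAD10, 6 for AAD14 and 1 for AAD15. AAD4, AAD10 and AAD14 each lie directly beside a gene of the thiamine pyrimidine synthesis family, THI13, THI11 and THI12. Up to 3 protein-coding neighbours on each side gave 22 genes, of which 17 had a single-named spot and 6 were tested with 4NQO. This set was chosen after values of these arrays were seen.

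All 6 tested neighbours were below 0 with 4NQO, with a median log2 ratio of -1.37, and limma called 3 of them lower and none higher, beside 10.4% of all tested features called lower. Near AAD4, the hexose transporter gene HXT15 lay at -2.49, -2.21, -1.51 and -1.09 on the 4 arrays (mean -1.83 ± 0.74, SD, n = 2; limma adjusted p = 0.038). Near AAD14 the mitochondrial chaperone gene MDJ2 was at -2.21 ± 0.44 (adjusted p = 0.017), and near AAD15 the transporter-like gene YOL163W was at -2.86 ± 1.76 (adjusted p = 0.01). PEX6, a peroxisome biogenesis gene near AAD14, was at -0.91 ± 0.18 and did not pass (adjusted p = 0.23). Near AAD4, THI13 was at -0.74 ± 0.96 and YDL241W at -0.35 ± 0.16, and neither passed (limma adjusted p = 0.36 and 0.66). The median of all tested features was -0.56, and with array medians centred YDL241W was at 0.11. Of the 47 array values of all these neighbours with 4NQO, 43 (91.5%) were below 0, against 60.6% of values of all features. With swaps taken as already turned the shares were 55.3% and 49.5%, 2 of the 6 tested neighbours were below 0 and none was called, so the low neighbour ratios rest on the swap direction.

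With array medians centred none of the 3 neighbours passed (adjusted p = 0.17, 0.073 and 0.076). With each condition fitted alone 1 neighbour was called. Leaving out an untreated experiment did not change these 4NQO ratios, only the spread used to test them. Without either 4NQO experiment these 3 genes could not be tested, since none had both untreated means. AAD14 and AAD15 did not have the low strain ratios of MDJ2 and YOL163W near them.

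Genes related to the AAD family by enzyme type or regulation were taken as lists, and all counts refer to the limma test over all features, of which 19.5% were called with 4NQO, 9.07% higher and 10.4% lower (Benjamini-Hochberg adjusted p under 0.05). In untreated cells 1 of 3457 features was called (0.0289%), while 198 had an unadjusted p under 0.05, and no list member was called. Among aldo-keto reductases outside the AAD family, 1 of 3 tested was called higher with 4NQO, none lower, with a median log2 ratio of 1.59. This was ARA1, an NADP-dependent arabinose dehydrogenase gene, at 1.91 ± 0.42 (SD, n = 2; adjusted p = 0.027) and above 0 on all 4 arrays. YJR096W, named after its value was seen, was at 1.59 ± 0.68 (adjusted p = 0.054).

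Alcohol and aldehyde dehydrogenase genes had a median of 1.15 over 5 tested, 2 called higher and none lower. ADH3, the mitochondrial alcohol dehydrogenase gene, was at 1.91 ± 0.69 (SD, n = 2; adjusted p = 0.029), and the fermentative ADH1 at 1.97 ± 1.79 (adjusted p = 0.037). All 5 tested genes of this list and all 3 aldo-keto reductases had means above 0, whereas 33.5% of all tested features did. ARA1, ADH1 and ADH3 were above 0 on all 4 arrays, and YJR096W and GRE2 on 3. GCY1 (0.45 ± 1.91), ADH4 (0.11 ± 1.58) and ADH5 (0.45 ± 0.93) each had 2 arrays below 0 and experiments of opposite sign. Another 4 dehydrogenase genes, measured on fewer than 4 arrays and not tested, had 9 array values below 0 and 1 above. With swaps already turned, 1 of the 5 dehydrogenases and 1 of the 3 reductases were above 0. Ehrlich pathway genes, which turn aromatic and branched amino acids into aldehydes and alcohols, had 2 tested and none called. The transaminase gene ARO8 was at 0.99 ± 0.79 (adjusted p = 0.21) and the alcohol acetyltransferase gene ATF2 at -1.34 ± 0.12 (adjusted p = 0.091).

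Yap1 targets and genes of electrophile defence, the group to which AAD4 is assigned by its regulation, had a median of 1.41 over 8 tested, of which 3 were called higher and none lower, and 5 did not pass. Of the 8, 6 were above 0, among them GRE2, which is also on the dehydrogenase list. With swaps already turned 2 were above 0. MXR1, a methionine sulfoxide reductase gene, was at 1.78 ± 0.11 (SD, n = 2), TRX2, a thioredoxin gene, at 1.84 ± 0.67, and AHP1, a peroxiredoxin gene, at 2.51 ± 3.04 (adjusted p = 0.034, 0.037 and 0.029). FLR1, on both this list and the drug efflux list and named after its value was seen, was below 0 on all 4 arrays. It was at -1.89 ± 1.34 and did not pass (limma adjusted p = 0.055). Another 13 genes of the Yap1 list, measured with 4NQO but not tested, had 20 array values below 0 and 15 above. Drug efflux genes had a median of -1.89 over 5 tested. The exporter genes QDR3, at -2.78 ± 1.60, and AQR1, at -2.47 ± 1.17, were called lower (adjusted p = 0.013 for both), and none was called higher. AQR1 was above 0, at 0.14, on the swapped array of 4NQO experiment 1. YOR1, at -0.50 ± 0.32, and PDR1, at 0.12 ± 0.99, were named after their values were seen. Neither passed (limma adjusted p = 0.53 and 0.9). Another 7 drug efflux genes, measured with 4NQO but not tested, had 7 array values below 0 and 8 above.

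Subtelomeric families had a median of -1.11 over 11 tested with 4NQO, 9 of them below 0 and 2 above, where 33.5% of all tested features were above 0. Another 23 measured but untested genes had 30 array values below 0 and 24 above. Of the 11, 1 was called lower and 1 higher, beside 10.4% and 9.07% of all tested features. COS12, of a membrane protein family, was called lower at -1.72 ± 0.77 (SD, n = 2; adjusted p = 0.047), and YRF1-2, one of many near-identical telomeric helicase genes and therefore uncertain, was called higher at 2.45 ± 0.21 (adjusted p = 0.01). Among mating type and auxotrophic markers 1 of 7 tested was called, as higher, beside 9.07% of all tested features. This was the alpha-factor gene MF(ALPHA)2 at 2.49 ± 0.75 (limma adjusted p = 0.011). The other alpha-factor gene, MF(ALPHA)1, named after its value was seen, was at 0.72 ± 1.06 and did not pass (limma adjusted p = 0.38). Of the 7, 2 were above 0, and the list median was -0.69. Any part of strain markers in the AAD values was not tested.

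The list counts depended on the level set as 0, on whether both conditions shared a spread in the fit, and on single experiments. With array medians centred 2 aldo-keto reductases, 2 dehydrogenases and 2 Yap1 targets were called higher, no drug efflux gene, 1 subtelomeric gene, as higher, and 1 marker. With arrays scaled to one spread 1 dehydrogenase, 1 Yap1 target, 1 subtelomeric gene and 1 marker were called, all higher. No aldo-keto reductase or drug efflux gene was called there. With each condition fitted alone no aldo-keto reductase, dehydrogenase or Yap1 target was called. In that fit 1 drug efflux gene (lower), 1 subtelomeric gene (higher) and 1 marker (higher) were. Leaving out an untreated experiment did not change the 4NQO ratios. The spread within features then came from the 4NQO experiments alone, as in that fit. Without 4NQO experiment 1 the calls in these 6 lists rested on 1 experiment with 4NQO, and no reported Yap1 target was among them. TRX2 and COS12 could not be tested without either 4NQO experiment. Without 4NQO experiment 2 no aldo-keto reductase and 1 dehydrogenase was called, 1 Yap1 target was higher and 1 lower, 2 drug efflux genes were lower, 2 subtelomeric genes higher and 1 marker lower, and 1 Ehrlich gene was higher. No list member was called with swaps taken as already turned, without the sparsest array, with features on all 8 arrays only (where 2 of the 3 called Yap1 targets and 1 of the 2 called subtelomeric genes were tested), or with 1 array standing for a swap.

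**Figure D4:**
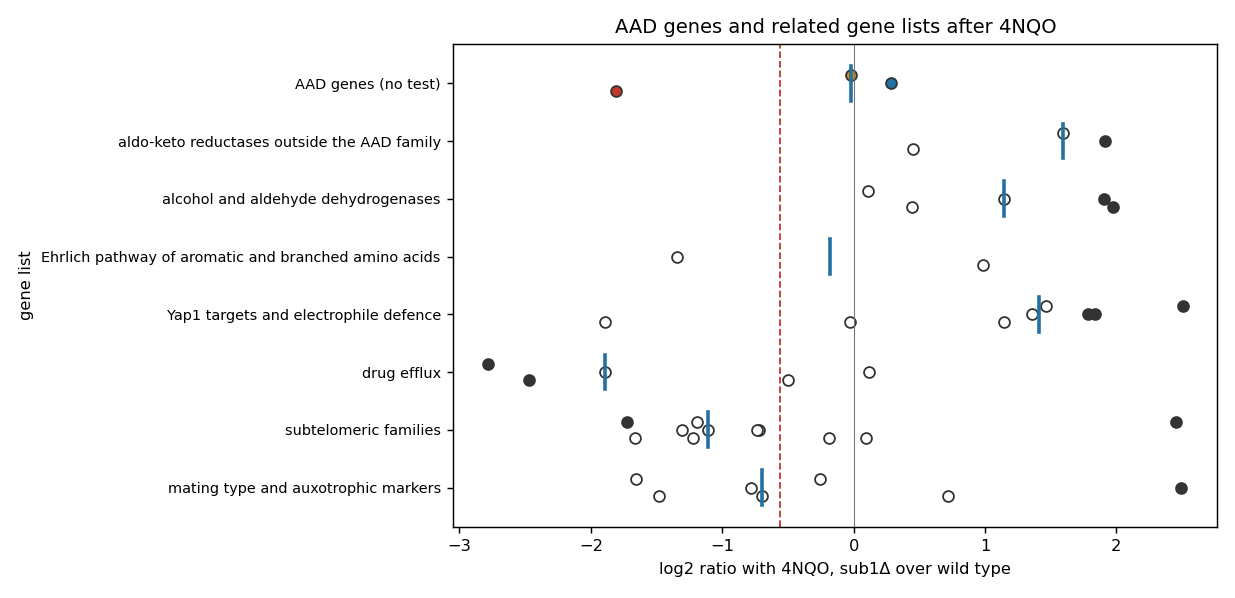
Log2 ratio of sub1Δ over wild type with 4NQO for AAD4 (red), AAD15 (orange) and AAD14 (blue) and for tested genes of each list, filled where limma's adjusted p was under 0.05 and open otherwise, with blue bars for medians and the dashed line at the median of all tested features (-0.56). The tested aldo-keto reductases and dehydrogenases and 6 of 8 Yap1 targets lie to the right of 0 and AAD4 to the left, a split that holds only with the dye swaps read as unturned. GRE2 is shown in both the dehydrogenase and the Yap1 list.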

How the data were processed

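The deposited values are a log2 ratio of Cy3 over Cy5 per spot. Per the series' design text, the authors scanned with a GenePix instrument, subtracted background and applied LOWESS (smooth parameter 0.33); the submitters' processing notes name limma 2.12.0. The sources used here do not say whether swaps were turned or why spots lack values. Arrays with sub1Δ in Cy5 were multiplied by -1. Of 3344 spots with 1 gene symbol, 3343 matched the R64 gene table by identifier. Spots of a gene were averaged, giving 5999 features.

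Both arrays of a dye swap were averaged to 1 value, so n = 2 experiments per condition, described as independent. The p-values combine the spread between experiments of a feature, over both conditions, with a spread estimated from all features. The latter had a weight of 16.75 prior degrees of freedom. A small p-value therefore need not mean that the 2 experiments of a gene had similar values. Limma 3.58.1 (R 4.3.3) was fitted on the 4 dye-swap means across all features with a shared spread (lmFit, eBayes), 2-sided, Benjamini-Hochberg adjusted, threshold 0.05, and tested on simulated data. A feature was tested where both means of the condition existed, so 3 of the 4 AAD genes were tested. The number of arrays limits precision. The AAD genes and the lists were chosen with earlier results of these data known. Named list genes were those called (up to 6), or the 2 of smallest p where none was, and 3 genes of smallest distance per AAD gene. Alternatives covered centring, scaling, missing values, swap direction, blocks, duplicate spots, single experiments and the fitted samples.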

Additional observations from a re-analysis of the deposited data

How the results depend on the processing

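AAD4 with 4NQO was 0.18 with dye swaps taken as already turned, opposite in sign to the reported value, because that choice averages the orientations with the opposite sign. The AAD median in untreated cells was -0.14 with arrays scaled to one spread, -0.69 with print blocks centred and 0.64 with swaps already turned; with 4NQO it was 0.43 with array medians centred and 0.36 with print blocks centred. Leaving out 1 experiment gave between -0.50 and -0.34 untreated and between -0.02 and 0.14 with 4NQO. With 1 array standing for a swap, AAD10 was -0.09 untreated and 0.41 with 4NQO. The neighbour counts, an alternative chosen after seeing the data, ranged from 0 to 3; the called neighbours were not tested without a 4NQO experiment or with features on all 8 arrays only.

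Features called in untreated cells were 0 with array medians centred, with 1 array of a swap standing alone, with features on all 8 arrays and without the sparsest array (limma, 152, 245, 82 and 116 at an unadjusted p under 0.05). They were 25 with arrays scaled, 3 with blocks centred, 2 with 1 spot per gene and 42 with each condition fitted alone, and between 0 (24 unadjusted) and 42 without 1 experiment. With 4NQO they were 212 with medians centred (195 higher, 17 lower, against 199 and 229 reported), 157 with arrays scaled (129 higher), 408 with blocks centred (284 higher) and 94 with each condition alone. They were 0 with 1 array standing alone, features on all 8 arrays, swaps already turned and no sparsest array (1229, 542, 319 and 1006 unadjusted), and between 94 and 338 without 1 experiment. For the difference between conditions the count was between 0 (64 to 305 unadjusted) and 47 (without 4NQO experiment 2) without 1 experiment and 0 with the experiment number as a replicate block (156 unadjusted). Without an untreated experiment the 4NQO ratios were unchanged, and their spread came from the 4NQO experiments alone, as with each condition fitted alone. The same holds for the untreated ratios without a 4NQO experiment. For the other settings the cause of the differing counts was not tested. With 1 experiment left in a condition, it was assumed to vary like the other condition. Signal over background could not be assessed, since intensities were not used here.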

Other observations

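The SOR2 and HXT15 genes near AAD4 have close copies, SOR1 and HXT16, near AAD10, so these spots may bind each other's RNA. Values of the sorbitol dehydrogenase genes, looked up after the data were seen, were below 0 wherever measured, with the swaps read as unturned. If the swaps had already been turned, values on swapped arrays would change sign. The SOR2 values given below as -8.07 and -5.80 would then lie above 0. SOR2 lay at -0.87, -1.09 and -8.07 on 3 untreated arrays and at -0.40, -5.80 and -1.08 on 3 arrays with 4NQO. SOR1 was measured on 3 untreated arrays, at -0.48, -1.50 and -2.67. HXT16 lay at -3.32, -0.25 and -1.45 on 3 untreated arrays and at -1.28 on 1 array with 4NQO. HXT15 and HXT16 were listed with the same value, -0.25, on the unswapped array of untreated experiment 2. AAD10, whose neighbours SOR1 and HXT16 are, was above 0 on 5 of 6 arrays with the swaps read as unturned. None of SOR1, SOR2 and HXT16 had the 2 complete dye-swap means that a test needs.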
